A study of Homo sapiens with 2 samples.

Results

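The promoters of 10 genes of the heat shock chaperone system were examined in the open chromatin of B2B cells. The genes were HSP90AA1, HSP90AB1, HSP90B1, HSPA1A, HSPA1B, HSPA5, HSPA8, HSPD1, HSPE1 and HSF1, chosen by name out of 20033 protein-coding genes of GENCODE 44. For each gene, ATAC-seq peaks were read within 2 kb of every annotated transcription start site (TSS), which is called a promoter here, and from 20 kb upstream to 20 kb downstream of the gene.

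Chaperones bind unfolded or newly made proteins and help them to reach or regain their fold. The HSP70 proteins (HSPA genes) hold short hydrophobic stretches of a client in cycles of ATP hydrolysis, the HSP90 proteins act later on partly folded clients such as kinases and steroid receptors, and HSPD1 with its lid HSPE1 forms the folding cage of the mitochondrial matrix. HSF1 is the transcription factor of the heat shock response. It binds the heat shock element, an array of inverted GAA units, and drives the genes of cytosolic chaperones when unfolded proteins build up. The chaperones of the endoplasmic reticulum (ER), among them HSPA5 (BiP) and HSP90B1 (GRP94), are instead controlled by the unfolded protein response, in which ATF6 and XBP1 act through the ER stress response element together with the CCAAT-binding factor NF-Y. Some members, such as HSPA8 and HSP90AB1, are known as constitutive genes, whereas HSPA1A and HSPA1B are known as strongly inducible ones.

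ATAC-seq marks accessible DNA by the insertion of adapters with the Tn5 transposase. The B2B cells (BEAS-2B) are human bronchial epithelial cells that were immortalized and are not cancerous. They carry the label wild type with no treatment named, and 2 biological replicates were profiled. With 1 condition, nothing could be tested between groups. All statements below are descriptions of cultures of a single line. The lists used hold 28735 peaks in replicate 1 and 36162 in replicate 2. They give no read totals, but the number of fragments or extended reads piled up at each summit could be recovered from the fold enrichment and the p-value. Which of these the caller counted is not given in the sources used here, and they are called fragments throughout. The median was 35 fragments in replicate 1 and 30 in replicate 2, and the lowest summit held 16 and 13 fragments. Where the local background was higher, more fragments were needed for a peak. A promoter without a peak is therefore one that did not reach the caller's limit, not one shown to be closed. The labelled cell type was checked at marker promoters. Of 12 epithelial markers 2 had a promoter peak in both replicates, KRT18 and ELF3, and the other 10, CDH1 and EPCAM among them, had none in either replicate. Of 12 mesenchymal markers 11 had one in both, the exception being COL3A1. Over all protein-coding genes the share was 57.6%. The marker promoters thus did not bear out the epithelial part of the label.

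All 10 chaperone genes had a promoter peak in replicate 1 and all 10 in replicate 2. Over all protein-coding genes a promoter peak was found for 58.5% in replicate 1, for 63.8% in replicate 2 and for 57.6% in both (11533 of 20033 genes, 95% Wilson interval 56.9% to 58.3%). The chaperone promoters are rich in CpG, with 61 to 142 CpG dinucleotides within 500 bp of the canonical start (the TSS of the canonical transcript) and a median of 76.5, against 66 over all genes. Among the 11203 genes with at least 61 CpG, 76.8% had a promoter peak in both replicates, which is the closer background for a count of 10 of 10. The height of a peak is given as its fold enrichment, the number of fragments at the summit over the local background, each with 1 added. Taking the highest promoter peak of each gene, the median over the 10 genes was 11.8 in replicate 1 and 12.1 in replicate 2 (mean 12.0 ± 0.245, SD, n = 2), beside 8.14 and 9.12 (8.63 ± 0.691, SD, n = 2) over all genes with a promoter peak. The median width was 737 bp and 774 bp, beside 460 bp and 507 bp. In both replicates 7 of the 10 genes lay above the median of all genes, and HSP90AB1, HSPA1A and HSF1 lay below it.

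The lowest height was that of HSP90AB1 and the highest that of HSPD1. The value of HSPD1 belongs to a peak 16 kb upstream at the start of MOB4, with summits 9 and 79 bases from a start of that gene. The peak counts for HSPD1 only because it lies within 2 kb of an alternative HSPD1 start, which was outside the peak in both replicates. At its canonical start HSPD1 had 11.8, on the peak it shares with HSPE1, and by the canonical starts HSPA5 was the highest. By the mean of the replicates the order was HSPD1 (15.8 ± 2.25), HSPA5 (13.9 ± 1.04), HSP90B1 (13.6 ± 0.750), HSPA1B (12.5 ± 0.464), HSPA8 (12.2 ± 0.259), HSPE1 (11.8 ± 0.565), HSP90AA1 (9.06 ± 0.320), HSF1 (8.11 ± 0.690), HSPA1A (7.43 ± 0.211) and HSP90AB1 (5.43 ± 0.330), each as mean fold enrichment ± SD with n = 2. Of the 9 pairs of neighbours in this order, 4 had overlapping ranges over the replicates. These were HSPD1 with HSPA5, HSPA5 with HSP90B1, HSPA1B with HSPA8, and HSPA8 with HSPE1. When the counting error of the fragments at the summit was taken into account by 95% exact Poisson intervals, neighbours overlapped in both replicates in 9 of 9 pairs. These intervals thus do not separate neighbours. Overlap of intervals is not a test of a difference, and no test between genes was run. The ends of the order were apart. HSP90AB1 had an interval of 3.54 to 7.39 in replicate 1 and of 3.71 to 8.32 in replicate 2, whereas HSP90B1, the third of the order, had 11.7 to 16.9 and 10.7 to 15.7.

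The cytosolic HSP90 genes had the lower peaks of the set together with HSF1 and HSPA1A. At HSP90AA1, the inducible HSP90 isoform, the peak at the canonical start (hg38 chr14:102086751-102087734 over both replicates) had a fold enrichment of 8.84 in replicate 1 and 9.29 in replicate 2, on 50 and 40 fragments. Both values lay near the middle of all genes with a promoter peak, at percentiles 56.5 and 51.2. The gene has a further group of starts 52.6 kb upstream, next to the start of WDR20 on the other strand, and a separate peak stood there at 6.24 and 8.52. The promoter at the canonical start holds a heat shock element of 3 units from 88 to 76 bases before the start, inside the peak of both replicates. It is printed below because it lies 18 bases from the summit of replicate 2 and 126 bases from that of replicate 1 (chr14:102087065-102087154, minus strand, the strand of the gene), with the element in capitals.
HSP90AA1: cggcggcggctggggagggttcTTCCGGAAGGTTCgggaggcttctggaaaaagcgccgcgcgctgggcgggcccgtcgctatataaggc

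HSP90AB1, the constitutive HSP90 isoform, had the lowest promoter peak of the 10 genes. Its highest promoter peak (chr6:44246029-44246608) had a fold enrichment of 5.20 and 5.66, on 29 and 24 fragments, at percentiles 17.0 and 15.0 of all genes. This peak did not lie at the canonical start but 753 and 537 bases before it by its summit, next to an alternative start 935 bases upstream. At the canonical start itself a second and lower peak (chr6:44246947-44247165) was found in both replicates, with a fold enrichment of 4.16 and 4.30 and a width of 143 bp and 180 bp. In replicate 1 it ended 12 bases before the start, and in replicate 2 it ran over it. The gene also holds 2 heat shock elements of 3 units at 677 and 730 bases after the canonical start, in an intron of the canonical transcript. They lie 165 and 112 bases before an alternative start in RefSeq (chr6:44247943), whose promoter thus holds them, and neither lay in a peak of either replicate. The nearest peak edge was 689 and 742 bases away in replicate 1 and 613 and 666 bases away in replicate 2. The stretch is shown as the counterpart of HSP90AA1, with the elements in capitals (chr6:44247766-44247856, plus strand).
HSP90AB1: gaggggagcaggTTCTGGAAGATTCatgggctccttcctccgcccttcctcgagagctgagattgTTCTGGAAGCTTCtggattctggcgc

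The ER chaperones HSPA5 and HSP90B1 had some of the highest peaks of the set. HSPA5, the HSP70 of the ER and the sensor that holds the stress receptors inactive, had a fold enrichment of 14.7 in replicate 1 and 13.2 in replicate 2 (chr9:125241043-125241853, 84 and 76 fragments), at percentiles 88.5 and 79.5. HSP90B1, the HSP90 of the ER, had 14.1 and 13.0 (chr12:103929452-103930523) on 116 and 105 fragments, at percentiles 86.8 and 78.4, and its peaks were the widest of the 10 genes in replicate 2, at 835 bp in replicate 1 and 1072 bp in replicate 2. Its summit fell on the same base in both replicates, 225 bases before the canonical start. In each gene replicate 1 was slightly higher than replicate 2. A lower peak of HSPA5 stood about 2.1 kb upstream, beyond the start of its divergent non-coding partner HSPA5-DT, at 5.70 and 4.55.

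Both ER promoters hold exact matches to the ER stress response element, a CCAAT box followed after 9 bases by CCACG, and all of these matches lay inside the peaks of both replicates. The element of HSPA5 runs from 66 to 48 bases before the start, and its centre was 43 and 72 bases from the summits. HSP90B1 has an element 194 to 176 bases before the start on the plus strand, 40 bases from the summit in each replicate, and another 89 to 71 bases before it on the opposite strand, 145 bases from the summit. The 3 elements are shown with the match in capitals, for HSPA5 in chr9:125241384-125241463 (minus strand) and for HSP90B1 in chr12:103930211-103930239 and chr12:103930316-103930344 (plus strand).
HSPA5: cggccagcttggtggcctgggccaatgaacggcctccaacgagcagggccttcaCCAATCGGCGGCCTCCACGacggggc
HSP90B1, distal: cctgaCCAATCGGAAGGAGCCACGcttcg
HSP90B1, proximal: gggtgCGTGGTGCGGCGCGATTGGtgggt

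HSPA8, the constitutive HSP70 of the cytosol, had a broad and high peak over its start (chr11:123061932-123062909). It reached 12.4 fold in replicate 1 and 12.0 fold in replicate 2, on 106 and 93 fragments, and the width was 962 bp and 940 bp. The summits fell 166 and 171 bases before the start, within 5 bases of each other. A second, low peak was found in both replicates within the gene, at 579 and 538 bases after the start, with a fold enrichment of 3.58 and 4.71. HSPA8 was the only member with a 3-unit heat shock element within 100 bases of the summit of its highest promoter peak in both replicates. The distal element lay 58 and 53 bases from the summits and the proximal one 117 and 122 bases. They are shown in capitals, on the strand of the gene, at chr11:123062347-123062372 and chr11:123062172-123062197 (minus strand).
HSPA8, distal: gagcttGAAAGTTCCAGAAcgctgcg
HSPA8, proximal: ggccccTTCTGGAAGGTTCtaagata

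HSPA1A and HSPA1B, the inducible HSP70 genes, are near-identical copies that lie in tandem on chromosome 6, and their promoter peaks differed in height in the same direction in each replicate. HSPA1A (chr6:31815173-31815628) had a fold enrichment of 7.28 in replicate 1 and 7.58 in replicate 2, on 41 and 35 fragments. HSPA1B (chr6:31826990-31827951) had 12.1 and 12.8 on 69 and 73 fragments, which is 1.67 and 1.69 times the value of HSPA1A. The replicates did not overlap, but within a replicate the counting intervals met at their edges, 5.27 to 9.81 against 9.47 to 15.3 in replicate 1 and 5.34 to 10.5 against 10.1 to 16.0 in replicate 2. The peak of HSPA1A was also narrower, 311 bp and 456 bp against 575 bp and 955 bp, and in replicate 1 it ended 43 bases before the start. Its summits lay 9 and 3 bases from the start of HSPA1L, so its height is not that of HSPA1A alone. A further peak stood 748 and 699 bases before HSPA1A, in an intron of HSPA1L, whose start lies 260 bases from that of HSPA1A on the other strand, at 5.89 and 5.16. A like peak 684 bases before HSPA1B was separate in replicate 1 (4.92) and part of the main peak in replicate 2.

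Reads from the copied stretch cannot be assigned to either gene where the copies do not differ, and how reads with several matches were placed is not given in the sources used here. The first 2000 bases of the genes were 98.6% identical, and 86.8% of all 50-base words in them occurred in both. In the 250 bases before the start the identity was 93.6%, no word of 50 bases was shared and 13.0% of the words of 36 bases were. From 500 to 251 bases before the start it was 60.6% as a whole, but the alignment of the peaks (91.8% identity over 415 bases) reached 329 bases before HSPA1A and 328 bases before HSPA1B. The summits, at 251 and 257 bases before HSPA1A and at 197 and 320 bases before HSPA1B, all lay within this aligned stretch. The parts of the peaks within the genes are uncertain between the copies. How far this touches the difference in height was not tested. The last 150 bases before each start are shown because the copies can be read against each other there. They share a match to the 2-unit heat shock element and the TATA box, both in capitals (chr6:31815393-31815542 and chr6:31827588-31827737, plus strand).
HSPA1A: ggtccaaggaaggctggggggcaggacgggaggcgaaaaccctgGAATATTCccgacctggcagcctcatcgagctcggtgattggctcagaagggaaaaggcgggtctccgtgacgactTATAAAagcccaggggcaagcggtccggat
HSPA1B: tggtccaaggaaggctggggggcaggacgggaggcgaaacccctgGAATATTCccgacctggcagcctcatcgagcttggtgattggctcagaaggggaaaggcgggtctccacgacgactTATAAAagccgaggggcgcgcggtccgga

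HSPD1 and HSPE1, the mitochondrial chaperonin and its lid, are transcribed in opposite directions from canonical starts 539 bp apart, and a single peak covered both starts (chr2:197499648-197500555). It was enriched 11.4 fold in replicate 1 and 12.2 fold in replicate 2 (mean 11.8 ± 0.565, SD, n = 2), on 102 and 105 fragments, with a width of 887 bp and 767 bp. The summit moved within the peak, to 130 bases before HSPD1 in replicate 1 and to 106 bases before HSPE1 in replicate 2. This peak stands for both genes and is not an independent value for each. The higher value given above for HSPD1, 14.2 and 17.4, belongs to a peak 16 kb upstream (chr2:197515671-197516689). It lies at the start of MOB4, whose product belongs to a complex of kinases and a phosphatase. An alternative start of HSPD1 lay outside this peak, 680 and 769 bases from its summits. A small peak in the first part of HSPD1 was found in replicate 1 (fold enrichment 3.79) and not in replicate 2. Between the canonical starts lies a pair of overlapping heat shock elements, inside the shared peak, from 245 to 228 bases before HSPD1 and from 311 to 294 bases before HSPE1. The pair is printed as the alternating run of units it forms (chr2:197500062-197500091, minus strand), with all bases of the elements in capitals.
HSPD1 and HSPE1: ggcattTTCTGGAAAGTTCTGGAAccgagc

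The summits of the members lay on the upstream side of their starts, while widths and numbers of peaks varied. By the peak with the highest fold enrichment within 2 kb of the canonical start, the summit lay before the start in 10 of 10 genes in each replicate, from 96 to 753 bases upstream, whereas over all genes it lay before the start in 75.5% in replicate 1 and 74.2% in replicate 2, with a median of 74 and 75 bases upstream. HSPD1 and HSPE1 share a peak whose summit lies between their divergent starts, so it is upstream of both and counted for each. The canonical start itself was inside a peak for 8 of 10 genes in replicate 1, not for HSPA1A and HSP90AB1, and for 10 of 10 in replicate 2. The share over all genes was not computed, so this count describes the members only. Members with at least 2 peaks within 2 kb of the canonical start in both replicates were HSP90AB1, HSPA1A, HSPA5, HSPA8 and HSF1, 5 of 10, beside 18.7% of the 10745 protein-coding genes with any such peak in both. Annotation lists 101 distinct starts for the 10 genes. Of these, 81 had a peak within 2 kb in both replicates and 18 had none in either. The 18 were starts inside the genes, 10 of them in HSF1 and 4 in HSP90B1. For these counts of starts, too, no share over all genes was computed.

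**Figure D1:**
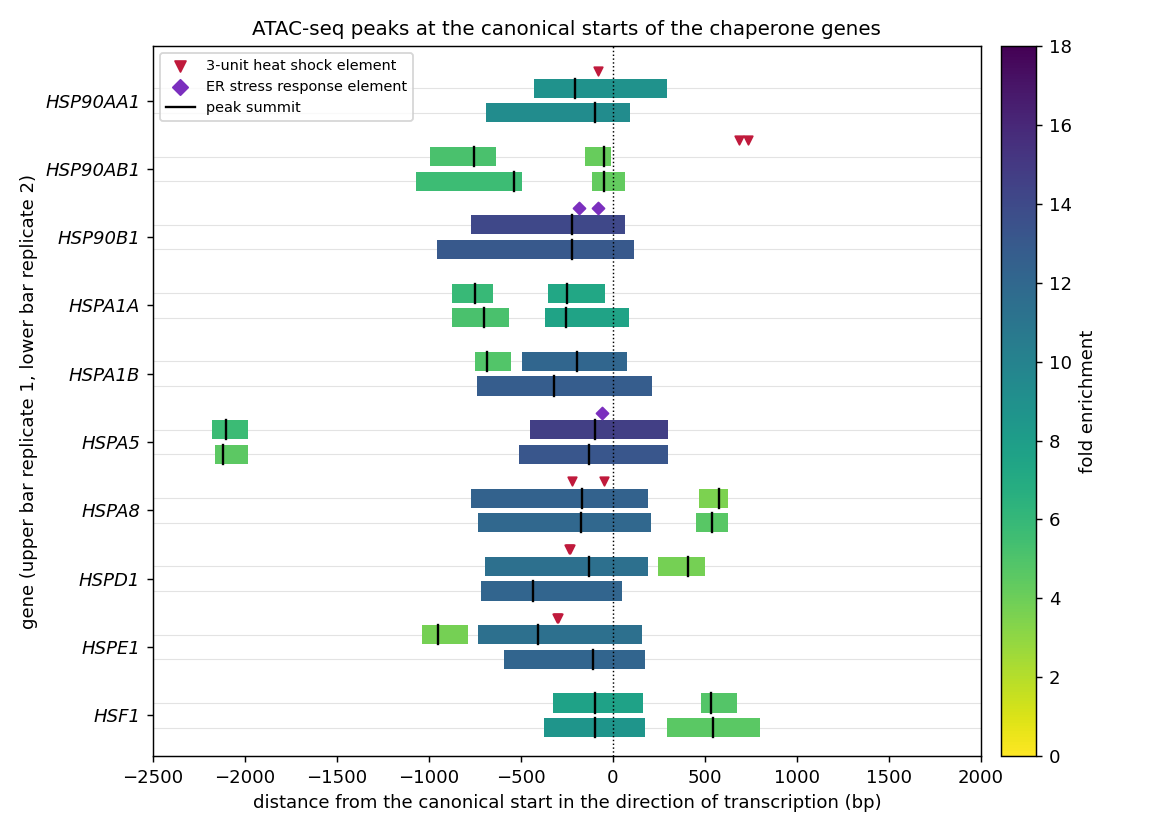
Peaks of replicate 1 (upper bar) and replicate 2 (lower bar) by distance in bp from the canonical start in the direction of transcription, coloured by fold enrichment, with summits as black lines and exact matches to the 3-unit heat shock element (triangles) and the ER stress response element (diamonds). All matches at the members except the 2 at HSP90AB1 lie over a peak of both replicates. No motif was searched at HSF1.

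Motifs were counted in the promoter sequences of RefSeq on GRCh38, 250 bases before to 50 bases after each start, by exact letters on both strands. The table holds 21986 promoters of protein-coding genes and 13 promoters of 9 of the members, HSF1 being the member without an entry. Members and background are both counted by promoter. The 3-unit heat shock element, GAANNTTCNNGAA, was present in 4 of 13 member promoters (1 each of HSP90AA1, HSP90AB1, HSPA8 and HSPD1), beside 0.405% of all promoters. The head-to-head pair GAANNTTC, which is part of the 3-unit element, was present in 6, beside 5.66%, and those without the longer match were HSPA1A and HSPA1B. The tail-to-tail pair TTCNNGAA, also part of it, was present in 4, beside 6.76%. The ER stress response element, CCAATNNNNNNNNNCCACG, was present in HSP90B1 and HSPA5 and in 0.105% of all promoters. No member promoter held both the 3-unit heat shock element and the ER stress response element. Of the general promoter elements, the GC box GGGCGG was found in 13 of 13, beside 56.3%, the CCAAT box, whose letters are also the first part of the ER stress response element, in 6, beside 34.7%, and the TATA box letters TATAAA in HSPA1A and HSPA1B, beside 9.52%. Other forms of the TATA box were not searched. The letters TATATAA in the HSP90AA1 stretch printed above are therefore not counted. The NRF1 letters GCGCNNGCGC were found in 3, beside 10.6%, at 2 distinct sites, 1 in the stretch shared by HSPD1 and HSPE1 and 1 at the upstream start of HSP90AA1 next to WDR20. The CRE TGACGTCA was found in 1, of HSP90AB1, beside 2.25%. The AP-1 letters TGAGTCA were in none of the 13, beside 4.02% of all promoters. These matches describe the letters and do not show that a factor was bound.

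The elements were then placed against the peaks within 2 kb of the canonical starts. Chromosome 8, with HSF1 and with BAG4 of the lists below, was left out of this search. Of 1023 matches to the 3-unit heat shock element, 34 lay in a peak of both replicates (3.32%), beside 6.86% of all bases in these windows. At the members 7 matches were found, counted once where HSPD1 and HSPE1 share them, and 5 of them lay in a peak of both. A further 11 of the 34 lay at 7 other chaperone genes of the lists below. These were DNAJA1, DNAJB5 and DNAJB6 (J-domain proteins that hand clients to HSP70), CHORDC1 and STIP1 (HSP90 co-chaperones), HSPH1 (an HSP110 that exchanges the nucleotide of HSP70) and HSPB1 (a small heat shock protein). In all 18 of the other chaperone genes had a match, and for 11 of them no match lay in a peak of both replicates. Among these 11 were HSPA6, an inducible HSP70 with a match 74 bases before its start, and CRYAB, a small heat shock protein with a match 53 bases before it. The ER stress response element had 60 matches, of which 19 lay in a peak of both (31.7%). The members held 3 of 3 of theirs in peaks and the other ER or chaperone genes 5 of 6, in CALR, CANX, CRELD2, PDIA6 and XBP1, with SIL1 outside. The 2 elements differ in base composition, which was not accounted for in these shares, and all genes named in this paragraph other than the members, STIP1 and SIL1 were named for their match or for its place against the peaks.

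HSF1, the regulator, had an intermediate peak at its own start. The peak was enriched 7.62 fold in replicate 1 and 8.60 fold in replicate 2 (chr8:144291231-144291778), on 43 fragments in each, at percentiles 45.3 and 44.2 of all genes. The summits fell 96 and 100 bases before the start. BOP1, a ribosome biogenesis factor, starts 153 bases from HSF1 on the other strand, so the peak is shared by a pair of divergent promoters. A second peak 533 and 544 bases into HSF1 was found in both replicates at 4.85 and 4.59. The related factor HSF2 had a much higher promoter peak, 21.2 and 20.8 (mean 21.0 ± 0.312, SD, n = 2), and the ranges of the 2 genes did not overlap.

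The wider loci held peaks at member promoters, at promoters of other genes and away from both. From 20 kb upstream to 20 kb downstream of the genes 33 distinct regions were found when overlapping peaks were merged, of which 25 had a peak of both replicates, 1 a peak of replicate 1 alone and 7 a peak of replicate 2 alone. Of the 33, 17 lay at member promoters, 16 of them found in both replicates, and 16 lay outside them, 9 found in both. Some of those found in a single replicate lay more than 2 kb from any protein-coding start and were not followed further. The share of regions outside promoters over all gene loci was not computed. The member loci held a median of 3 regions found in both replicates, from 2 to 6, beside 1 for all protein-coding genes. The value of all genes includes those without a promoter peak, whereas every member has one. A median over genes with a promoter peak or with as many CpG was not computed. HSPD1 with HSPE1 and HSPA1A with HSPA1B share regions, which are counted for each gene in this median. Of the 9 regions outside, 6 lay within 2 kb of a start of another protein-coding gene, namely SLC35B2 and NFKBIE near HSP90AB1, UQCC6 and TDG near HSP90B1, LSM2 near HSPA1A, and DGAT1 near HSF1. The peak at DGAT1, an enzyme of triglyceride synthesis, was the highest of these in replicate 1, at 15.3 and 15.2, above the peak of HSF1 itself.

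The other 3 regions lay farther from annotated protein-coding starts. Upstream of HSP90AB1, between it and the nucleoside transporter gene SLC29A1, a pair of regions stood about 9 kb from the canonical start. The stronger (chr6:44237373-44237809) had a fold enrichment of 11.3 in replicate 1 and 13.9 in replicate 2, on 64 and 66 fragments, and the weaker (chr6:44237922-44238178) had 5.37 and 5.39. The stronger region was thus higher than both promoter peaks of HSP90AB1 in each replicate, and its nearest protein-coding start was that of SLC29A1, 5.5 kb away. Downstream of HSPA5 a region in an exon of RABEPK (chr9:125233723-125233967) had 6.58 and 9.52. Peak lists alone do not tie a distal region to a gene.

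**Figure D2:**
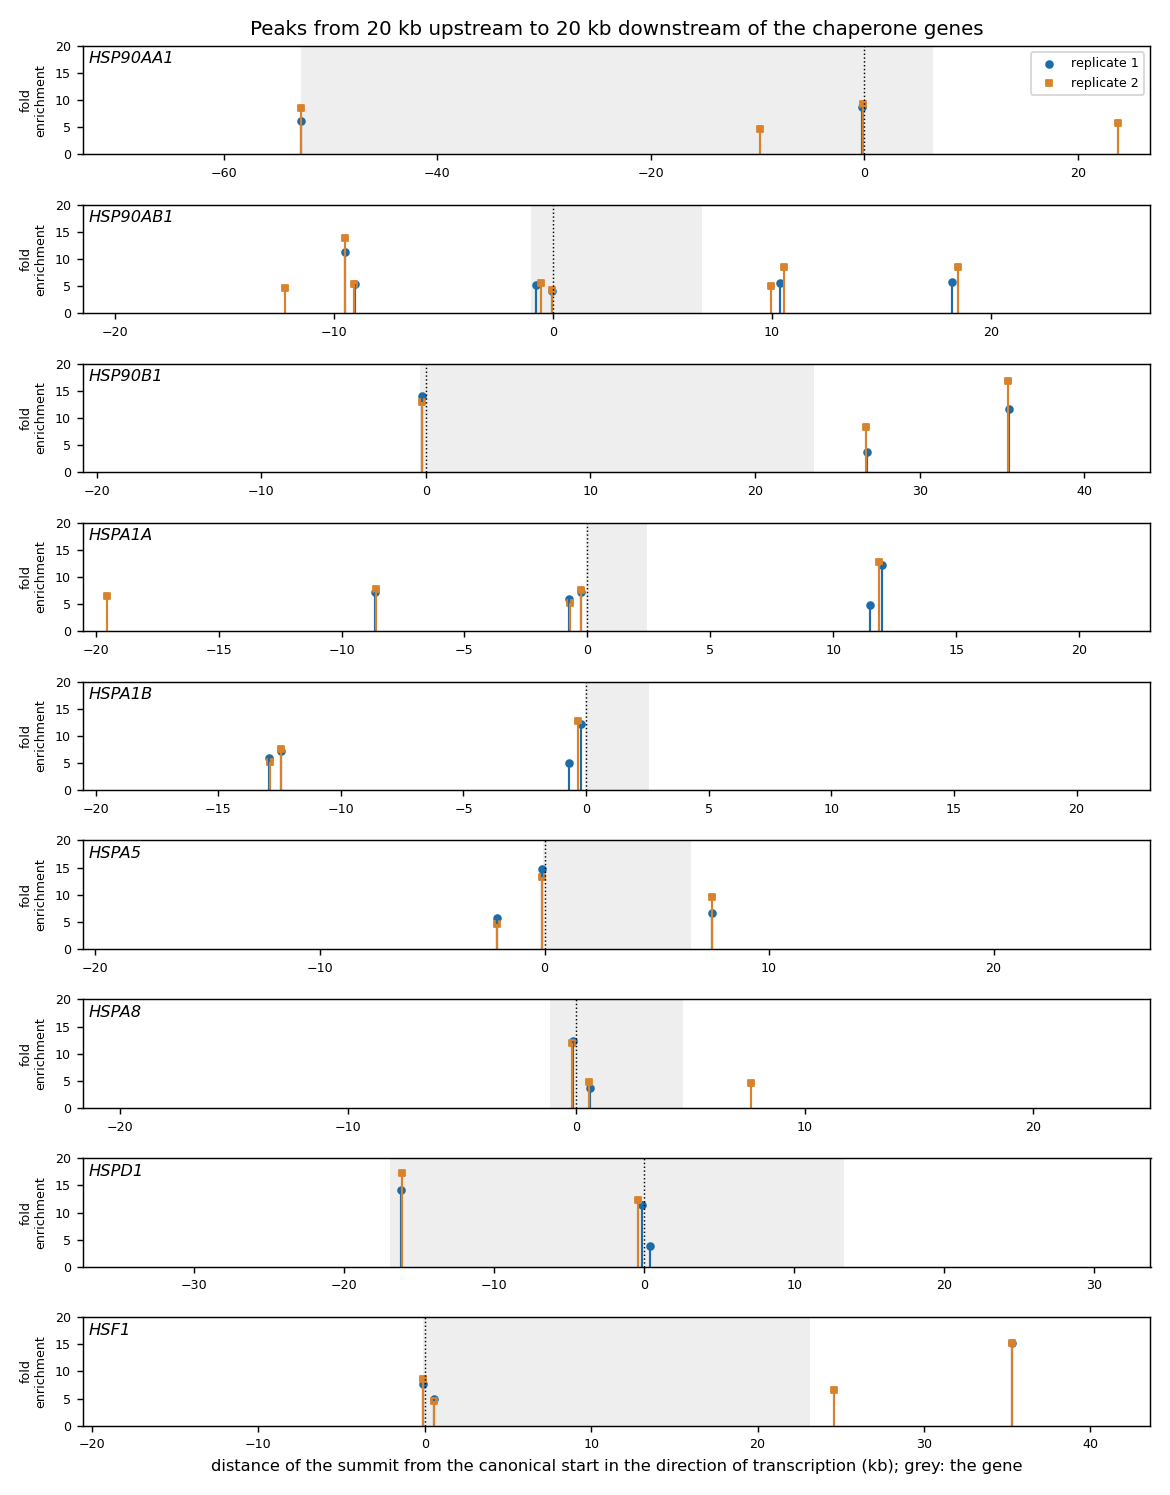
Fold enrichment (linear axis) of every peak from 20 kb upstream to 20 kb downstream of the genes against the distance of its summit from the canonical start in kb, for replicate 1 (circles) and replicate 2 (squares), with the gene in grey. HSPE1 is covered by the panel of HSPD1, whose start it adjoins. The 2 tallest peaks left of HSP90AB1 (11.3 and 13.9) exceed those at its start, and the tallest near HSF1 (15.3 and 15.2) is at DGAT1.

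Most members had a start that adjoined one on the other strand, counting every annotated transcript and every gene type. The share over all genes under this rule was not computed, so it is not shown to be particular to the members. Within 1 kb of a member start, on the other strand, lay starts of the protein-coding genes WDR20 (at the upstream starts of HSP90AA1), HSPA1L (at HSPA1A), HSPE1, HSPE1-MOB4 and MOB4 (at HSPD1), HSPD1 (at HSPE1) and BOP1 (at HSF1). Starts of the pseudogene TTC41P at HSP90B1, of the non-coding HSPA5-DT at HSPA5, and of unnamed non-coding genes at HSPA1B and HSPA8 also did so. Between canonical starts the distance was 52853 bp for WDR20, 14543 bp for TTC41P and 16226 bp for MOB4. These 3 pairs thus rest on other annotated starts. HSP90AB1 was the member with none. The peaks at these places cannot be assigned to one direction of transcription.

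Other genes of the chaperone system were examined in the same way. Over 8 further lists 68 of 80 genes (85.0%) had a promoter peak in both replicates, beside the 57.6% of all protein-coding genes. Of the 65 with at least 61 CpG 57 had one (87.7%), beside the 76.8% of all genes with as many. By replicate there were 69 genes in replicate 1 and 73 in replicate 2, and the median of the mean fold enrichment over those with a peak in both was 10.6. A peak was found in neither replicate for 6 genes. These were HSPA12B, a distant HSP70 relative, DNAJA4, a J-domain protein, the small heat shock protein genes HSPB3, CRYAA and HSPB7, which are known from muscle and lens, and ATF6, the ER stress sensor. A peak in a single replicate was found for HSPA6 (replicate 1) and for DNAJC7, HSPB9, TRAP1, CCT4 and HSF4 (replicate 2).

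The lists are described by their counts and medians. Of 12 other HSP70 and HSP110 genes 10 had a peak in both replicates, with a median fold enrichment of 11.9 and with HSPA13 (19.6 ± 1.07) and HSPA2 (14.5 ± 1.89) at the top. HSPA1L, counted there, shares the peak of HSPA1A. Of 13 J-domain genes 11 had one, with a median of 12.6, led by the ER members DNAJB9 (19.5 ± 1.11) and DNAJC3 (18.4 ± 2.97). All 10 nucleotide exchange factors had one, with a median of 9.17, led by the mitochondrial GRPEL2 (15.9 ± 1.35) and the ER factor SIL1 (13.0 ± 2.45). Of the 10 HSP90 paralogue and co-chaperone genes 9 had one, with a lower median of 7.50, led by AHSA1, which activates the HSP90 ATPase (16.8 ± 0.336), and STIP1, which links HSP70 to HSP90 (13.5 ± 1.11).

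The cytosolic chaperonin CCT had 7 of 8 subunit genes with a peak in both replicates and a median of 11.6, led by CCT6A (17.0 ± 1.68) and CCT7 (15.5 ± 3.25). The ER stress and folding list had 14 of 15 genes and a median of 12.0, led by the disulfide isomerase PDIA4 (19.5 ± 0.640) and the secreted stress protein MANF (17.4 ± 0.0915). Of the heat shock factors and their partner 2 of 3 genes had one, HSF2 (above) and HSBP1, which binds trimeric HSF1 (8.33 ± 2.96). The small heat shock proteins had the lowest share and median of the chaperone lists. Of these 5 of 9 genes (55.6%) had a peak in both replicates, beside the 57.6% of all genes, and their median was 5.68. HSPB6 (13.3 ± 0.110) stood above the others, HSPB1 had 6.59 ± 2.21, and CRYAB and HSPB2 share a single peak. Only HSPB1 and HSPB9 of this list have at least 61 CpG. The share over all genes with fewer was not computed. It must lie below 57.6%, since the genes with at least 61 CpG had 76.8%, so 57.6% is too high a background for the rest of this list. Over all the further lists, 15 genes have fewer than 61 CpG, and 11 of these had a peak in both replicates. Errors in these lists are SD over the 2 replicates.

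**Figure D3:**
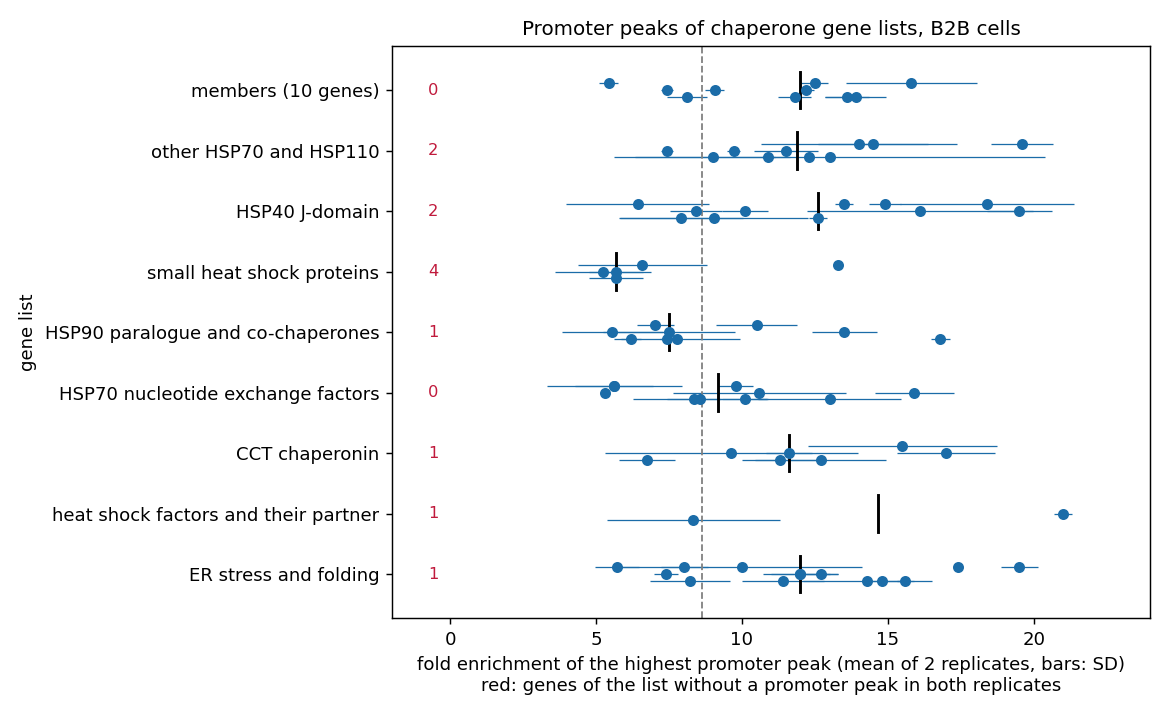
Mean fold enrichment of the highest promoter peak over the 2 replicates (points, with SD as bars) for the genes of each list with a peak in both replicates, the median of each list (black line), and the median of all genes with a promoter peak (dashed, 8.63). Red numbers count the genes of a list without a peak in both replicates, 0 of the 10 members and 4 of the 9 small heat shock protein genes, whose median of 5.68 is the lowest.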

How the data were processed

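ATAC-seq of B2B cells was analysed from 2 deposited peak lists, one per biological replicate. Per the submitters' processing notes and the study's methods, the authors mapped reads to hg38 with Bowtie2 2.4.4, removed duplicates with custom code, used SAMtools 1.13 and called peaks per replicate with MACS2 2.2.7.1, keeping all remaining reads. The q limit, any shift for Tn5 and the treatment of mitochondrial and multiply mapped reads are not given in the sources used here. The deposited fold enrichment is a linear ratio over the local background. The authors' lists also give −log10 p-values, −log10 q-values, a score (not used) and the summit position.

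Peaks on the autosomes, X and Y were used. Those within 2 kb of any TSS in GENCODE 44 were assigned to genes by an overlap of at least 1 bp, and the highest by fold enrichment was taken. Fragments at summits were solved from the fold enrichment and −log10 p within 0.01, giving whole numbers for 99.9% of peaks in each list. On simulated data 2986 of 2986 fragment numbers, 1000 of 1000 promoter overlaps and 400 of 400 motifs were recovered. The motif search within 2 kb of canonical starts left out the chromosome of HSF1, and the search around summits left HSF1 out of the members. Sequences are from RefSeq promoters identical to hg38 or from hg38 itself. Copies of promoter peaks were looked for with blastn of BLAST 2.17.0. Intervals cover counting error only.

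The members and lists were chosen with earlier results of these data known. The genes named are all members, genes of each list with a peak in neither replicate, the 2 highest of each list, genes starting within 1 kb of a member start on the other strand, and the genes nearest to flanking peaks found in both replicates. Others were named after their values were seen. Alternatives covered promoter windows, starts, q limits, flanks, overlap, equal list sizes and single replicates. The scripts ran in Python 3.11.15 (pysam 0.24.0, scipy 1.17.1, pandas 2.3.3, numpy 2.4.6, matplotlib 3.10.9).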

Additional observations from a re-analysis of the deposited data

How the results depend on the processing

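The count of 10 members with a promoter peak in both replicates was 10 under all 9 alternatives run, including a −log10 q of at least 10. The share of all protein-coding genes, 57.6%, moved to 55.0% with a window of 500 bp, 56.1% with 1 kb, 53.6% with the canonical TSS only, 48.9% with a −log10 q of at least 10 and 55.4% with equal numbers of the strongest peaks, and ranged from 58.5% to 63.8% with a single replicate. The median percentile rank of the members was 74.7 by fold enrichment and 80.1 by −log10 q. With 100 bases to either side of the summit in place of the promoter, the 3-unit heat shock element was found in 1 member in replicate 1 and 2 in replicate 2 instead of 4, and the 2-unit element in 2 and 2 instead of 6, in a window that is shorter and, for HSPD1, lies at the peak near MOB4. HSPD1 fell to 11.8 with the canonical TSS only, because its highest peak lies at the start of MOB4. The median over the members was then 11.8 instead of 12.0. The other 9 members had the same value with the canonical TSS only, and all 10 with a window of 500 bp. A single replicate gives no check of a single member, since with 2 replicates each value lies less than 1 SD from their mean. The regions found in both replicates at the loci, 25, numbered 19 to 36 under the flank, q and overlap alternatives and 27 to 32 with a single replicate. No paired analysis was possible because there is 1 group. With 2 replicates and 13 to 16 fragments needed for a peak, lower peaks were not detectable at this depth.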
